A study of Homo sapiens with 28 samples.

Results

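Expression and labelling of 10 genes of the HSP70 and HSP90 chaperone system were followed in human HEK 293T cells, an embryonic kidney line, through 18 RNA-seq libraries in which newly made RNA carries a chemical mark. The genes were chosen by name from the heat shock families, with their read counts and their shares of T-to-C reads in these libraries already known, and no threshold on a value entered the choice. They are HSPA1B (ENSG00000204388), HSPA1A (ENSG00000204389), HSPA8 (ENSG00000109971), HSPA5 (ENSG00000044574), HSPH1 (ENSG00000120694), DNAJB1 (ENSG00000132002), HSP90AA1 (ENSG00000080824), HSP90AB1 (ENSG00000096384), HSPD1 (ENSG00000144381) and HSPE1 (ENSG00000115541), 10 of the 24678 genes with at least 1 exonic read. Of the 10, 9 passed the filter on low counts that left 12449 genes for testing. HSPE1 did not, since the gene column gave it 30 exonic reads over all libraries. Because the counts were known when the genes were chosen, the adjusted p-values below describe where the members stand in fits over the whole table and are not independent support for the choice.

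HSP70 proteins bind unfolded stretches of client proteins in a cycle driven by ATP. J-domain proteins such as DNAJB1 deliver clients and speed ATP hydrolysis, and nucleotide exchange factors such as HSPH1 (an HSP110 protein) reset the cycle. HSP90 proteins take over clients, many of them kinases and receptors, at a later stage of folding. HSPA8 and HSP90AB1 are the constitutive cytosolic forms, HSPA1A and HSPA1B the forms most strongly induced by heat, HSP90AA1 an inducible HSP90, HSPA5 (BiP) the HSP70 of the endoplasmic reticulum, and HSPD1 with HSPE1 the folding chamber and lid of mitochondria. Transcription of the cytosolic genes rises in heat and proteotoxic stress through heat shock factor HSF1, which binds repeated inverted GAA units, the heat shock element. HSPA5 answers instead to unfolded protein in the endoplasmic reticulum, through an element made of CCAAT and CCACG.

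The promoters are shown first, with the exact letters of the heat shock element or the endoplasmic reticulum element where they were found. RefSeq windows of GRCh38.p14 were found for 10 of the 10 members, 16 windows in all because several genes have alternative starts, and the 250 bases before each start were searched on both strands. The motif with 2 inverted units, GAANNTTC or TTCNNGAA (these can overlap each other), occurred in 7 of the 16 member windows, each of a different member, and in 11.6% of all 35116 promoter windows of the same length. The motif with 3 units, TTCNNGAANNTTC or its reverse complement, which contains the shorter ones, occurred in HSPA8, HSP90AA1, HSP90AB1 and HSPD1, in 4 of the 16 windows, and in 0.441% of all windows. The element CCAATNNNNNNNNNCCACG occurred in 1 member, HSPA5, and in 0.074% of all windows. None of these letters were found in the windows of HSPH1 and HSPE1. Such a match is a description of the letters and shows no binding. Only exact letters in these windows were searched, so a member without a match may still carry an element. The HSPD1 match below (chr2:197500060-197500089) lies outside the HSPE1 window, which starts at 197500129.

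The near-identical pair HSPA1A and HSPA1B lies on chromosome 6 with 9795 bases between the genes, and the 250 bases before their starts were identical at 93.6% of aligned positions. Their last 150 bases before the start (chr6:31815393-31815542 and chr6:31827588-31827737, plus strand, RefSeq GRCh38.p14) each hold 1 inverted pair of units, whose fixed letters are in capitals.
HSPA1A: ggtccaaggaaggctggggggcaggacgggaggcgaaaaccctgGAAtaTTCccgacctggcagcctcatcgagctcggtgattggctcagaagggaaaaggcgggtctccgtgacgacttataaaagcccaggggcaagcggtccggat
HSPA1B: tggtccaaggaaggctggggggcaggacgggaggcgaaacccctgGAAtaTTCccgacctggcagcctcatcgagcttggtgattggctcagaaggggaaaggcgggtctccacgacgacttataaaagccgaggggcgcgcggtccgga

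The same stretch of HSPA5 (chr9:125241344-125241493, minus strand) holds the CCAAT and CCACG letters in capitals and no heat shock element of the kinds searched.
HSPA5: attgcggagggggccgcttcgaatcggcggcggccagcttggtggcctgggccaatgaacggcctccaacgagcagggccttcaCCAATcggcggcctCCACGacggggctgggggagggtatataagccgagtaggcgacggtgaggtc

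For 5 members whose matching window lies inside the gene's own annotated span, only 30 bases around the elements are shown, written along the strand of the gene: HSPA8 (chr11:123062167-123062196, minus strand), HSP90AA1 (chr14:102087104-102087133, minus), HSP90AB1 (chr6:44247826-44247855, plus), HSPD1 (chr2:197500060-197500089, minus) and DNAJB1 (chr19:14518423-14518452, minus). Capitals mark the GAA and TTC units. Further matches lie outside the bases shown, at -230 from the start in HSPA8, -165 in HSP90AB1 and -77 in DNAJB1.
HSPA8: gccccTTCtgGAAggTTCtaagatagggta
HSP90AA1: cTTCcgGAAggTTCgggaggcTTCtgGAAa
HSP90AB1: gattgTTCtgGAAgcTTCtggattctggcg
HSPD1: cattTTCtgGAAagTTCtgGAAccgagcga
DNAJB1: gggctctgGAAgcTTCcgccggacgggtat

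Labelled cells had received 100 µM 4-thiouridine (s4U) for 2 h. Polymerases build this uridine analogue into new RNA, and after chemical conversion it is read as C, so a T-to-C mismatch marks RNA made during the label. The conversion was NaIO4 with TFEA at pH 5.2 (TimeLapse, TL), iodoacetamide (SLAM) or OsO4 with NH3 (TUC). Each chemistry was run on RNA handled in the common way, labelled drop-out (DO) by the authors, and on RNA handled so as to lose less s4U-labelled RNA and fewer T-to-C reads, labelled improved (IH). Every chemistry and handling had 2 labelled libraries and 1 library from wild-type cells without s4U, and nothing in the labels says that the 2 came from separate cultures, so p-values measure the spread between these libraries, which may be technical. Libraries held 1935777 to 9962345 reads, of which 17.5% to 41.5% named no gene, the larger share under drop-out handling. The 10 members took 0.219% to 0.413% of exonic reads under drop-out and 0.365% to 0.636% under improved handling. Levels are given in CPM, exonic counts scaled to a common library size by trimmed means (TMM), and in bulk RNA fewer cells with a transcript and less of it per cell cannot be told apart. Levels are not compared between genes, because no transcript lengths were used.

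The labelled drop-out libraries fell into sets by their replicate number. Deviations from the group mean correlated across genes between same-numbered libraries of different chemistries with r of 0.195, 0.237 and 0.196, while the corresponding values under improved handling were 0.0159, 0.0258 and 0.00911. For HSPA8 the 3 drop-out libraries numbered 1 stood at 378 to 400 CPM and the 3 numbered 2 at 502 to 558. For HSP90AA1 the order was the other way, 521 to 795 in number 1 and 258 to 372 in number 2. The number 1 and number 2 libraries did not overlap for either gene, and values by number, or with the 3 chemistries of a number summed to 1 library, are therefore given beside the main results.

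Handling moved the members in both directions. In labelled RNA, HSP90AA1, HSPH1 and HSPD1 were higher under improved handling, and HSPA1B, DNAJB1, HSP90AB1 and HSPA8 were lower. HSPA5 did not pass the test. HSPA1A was also called lower, but on 34 reads against 6, and it passed the filter on low counts only through the labelled drop-out libraries, so nothing is read from that call. In the edgeR quasi-likelihood fit with Benjamini-Hochberg adjustment over 12449 genes, 3 of 9 tested members were thus higher and 5 lower with HSPA1A counted, where 46.7% of all tested genes were called higher and 33.9% lower. With both directions this common over the table, the members' counts say little by themselves. The median log2 change was -0.34 over the 8 members other than HSPA1A and 0.44 over all tested genes.

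**Figure D1:**
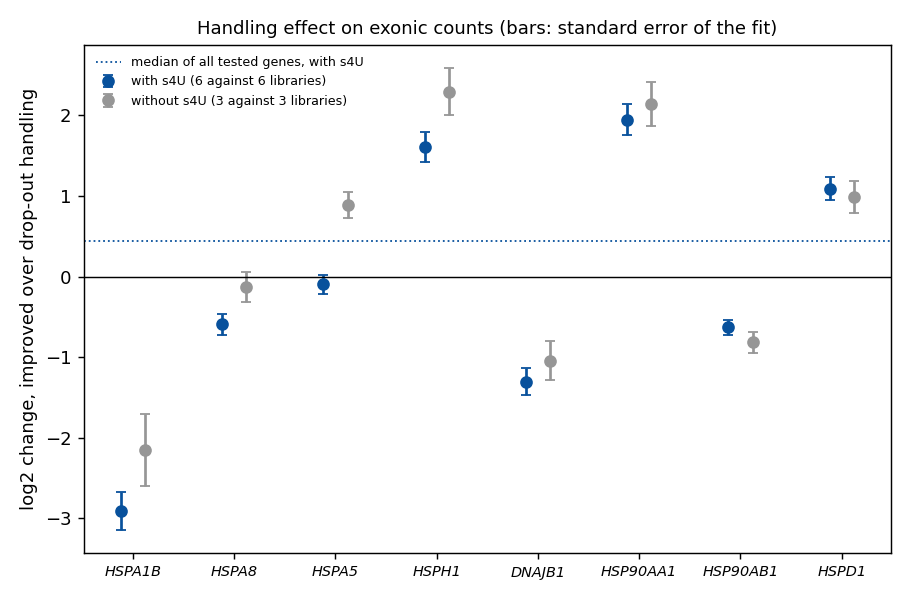
Log2 change of exonic counts, improved over drop-out handling (y axis), for 8 chaperone genes (x axis) in labelled libraries (blue, 6 against 6) and unlabelled libraries (grey, 3 against 3); bars are standard errors of the edgeR fit and the dotted line is the median of all tested genes in labelled libraries, 0.44. HSPH1, HSP90AA1 and HSPD1 lie above 0 and HSPA1B, DNAJB1 and HSP90AB1 below 0 in both kinds of library, while HSPA5 lies at -0.10 with s4U and 0.89 without.

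Among the HSP90 genes, the inducible HSP90AA1 and the constitutive HSP90AB1 went apart. HSP90AA1 had a lowest, median and highest level of 258, 446 and 795 CPM in the 6 labelled drop-out libraries and of 1442, 1784 and 2257 CPM in the 6 labelled improved libraries. All improved libraries lay above all drop-out libraries, a fitted difference of 1.95 on the log2 scale (SE 0.19, adjusted p = 4.80e-09 in edgeR). HSP90AB1 stood at 1790, 2234 and 2927 CPM under drop-out and at 1170, 1335 and 1898 CPM under improved handling, a fitted difference of -0.63 on the log2 scale (SE 0.09, adjusted p = 2.48e-06 in edgeR) with overlapping ranges. The 2 improved TL libraries, at 1833 and 1898 CPM, reached into the drop-out range. Scaled without TMM, which raised the median of all genes from 0.44 to 0.995, HSP90AB1 stood at -0.08 and was not called (edgeR adjusted p = 0.406).

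Reads of the HSP90 pair can be set against each other within a library, a ratio that no scaling between libraries can move. HSP90AA1 had 0.124 to 0.316 exonic reads per HSP90AB1 read in the labelled drop-out libraries and 1.17 to 1.41 in the labelled improved libraries. Without s4U the ratio ran from 0.143 to 0.173 under drop-out and from 1.11 to 1.28 under improved handling. The handlings did not overlap with or without s4U, and within drop-out the libraries numbered 1 (0.257 to 0.316) lay above those numbered 2 (0.124 to 0.152). This ratio was chosen after its values were seen and is given without a test.

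Among the HSP70 genes with enough reads for a fold change, HSPA1B changed most. It had 40.5, 65.5 and 77.7 CPM (lowest, median, highest) in labelled drop-out libraries and 6.29, 8.10 and 11.3 CPM in labelled improved libraries, a fitted difference of -2.90 on the log2 scale (SE 0.24, adjusted p = 2.52e-10 in edgeR). No improved library reached the lowest drop-out library, and 0.691% of tested genes had a lower value of this change. HSPA8 had 378, 451 and 558 CPM under drop-out and 268, 305 and 342 CPM under improved handling, again without overlap, at -0.59 on the log2 scale (SE 0.13, adjusted p = 0.000241 in edgeR). HSPA5 had 301, 342 and 371 CPM under drop-out and 263, 319 and 340 CPM under improved handling, which overlap (log2 change -0.10, SE 0.11, edgeR adjusted p = 0.442). Scaled without TMM, HSPA8 stood at -0.03 and was not called (edgeR adjusted p = 0.829), and HSPA5 turned to 0.45 (edgeR adjusted p = 0.00142). A fit of intronic and exonic reads together took its filter and TMM scaling anew. The members stood lower in it, HSPA5 at -0.78 (edgeR adjusted p = 1.3e-05), HSPA8 at -1.29 and HSP90AB1 at -1.30. HSP90AA1 moved to 1.28, HSPH1 to 0.85 and HSPD1 to 0.39. HSPA5 itself had 4 intronic reads beside 2127 exonic ones in labelled drop-out libraries, and 10 beside 3464 in labelled improved libraries. The cause of the shift was not tested. In that fit 6 of 9 members were called lower and 3 higher. No share of all genes called in it is given here, so nothing is read from these counts. HSPA5 was also called lower with chemistry and replicate number as a block (-0.29, edgeR adjusted p = 0.0114), but not with chemistries summed (-0.23, adjusted p = 0.281). The block fit used labelled libraries only, with its own filter and TMM scaling, and replicate numbers did not pair the handlings. HSPA8 also moved down in it, to -0.77, and HSP90AB1 to -0.82. The cause of these moves was not tested. HSPA5 stood at -0.32 against the number 1 drop-out libraries alone and at -0.13 against the number 2 libraries alone. Without TL or SLAM drop-out replicate 2 it stood at -0.28 and -0.26. The scaling without TMM left 3 members called lower in place of 5, and genes called higher then made up 69.8% of called genes in place of 57.9%.

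The partners of HSP70 also went apart. HSPH1, the exchange factor, rose from 20.2, 34.5 and 50.0 CPM (lowest, median, highest) in labelled drop-out to 81.2, 103 and 122 CPM in labelled improved libraries (log2 change 1.61, SE 0.19, edgeR adjusted p = 5.97e-08). DNAJB1, the J-domain partner, fell from 55.6, 64.5 and 73.5 CPM to 20.8, 25.8 and 35.1 CPM (log2 change -1.30, SE 0.17, edgeR adjusted p = 3.43e-07). Neither gene had overlapping handlings. The mitochondrial HSPD1 rose from 154, 248 and 304 CPM to 481, 513 and 532 CPM, without overlap (log2 change 1.09, SE 0.14, edgeR adjusted p = 3.504e-07). With the 3 chemistries of a replicate number summed, which leaves 2 labelled samples per handling, the same members were called in labelled RNA, with log2 changes of 1.76 for HSP90AA1, -0.80 for HSP90AB1, -3.11 for HSPA1B, -0.76 for HSPA8, 1.37 for HSPH1, -1.43 for DNAJB1 and 0.93 for HSPD1.

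**Figure D2:**
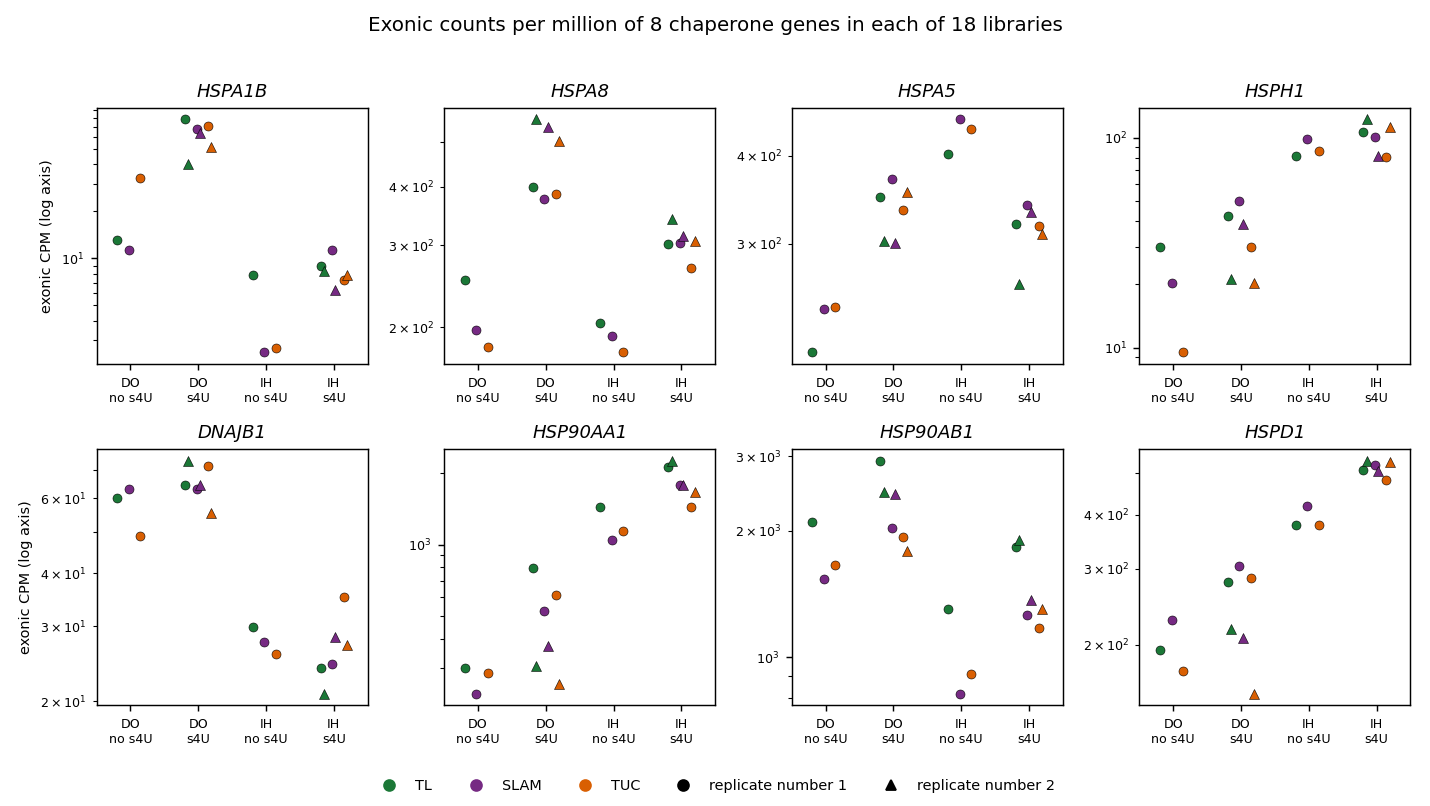
Exonic CPM (y axis, log scale) of 8 chaperone genes in each library, by handling and label (x axis); colour gives the chemistry and shape the replicate number, and each point is 1 library. HSPA1B runs from 40.5 to 77.7 CPM in labelled drop-out libraries and no other group exceeds 32.6 CPM, while HSP90AA1, HSPD1 and HSPH1 are higher in every improved library than in every drop-out library.

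The handling difference was also present in RNA that never carried s4U. Of the members, 4 of 9 were called higher under improved handling and 3 lower, where 41.4% of all tested genes were called higher and 30.7% lower. HSP90AA1 stood at 233, 286 and 299 CPM in the 3 unlabelled drop-out libraries and at 1049, 1138 and 1441 CPM in the 3 unlabelled improved libraries (log2 change 2.14, SE 0.28, edgeR adjusted p = 6.00e-07). HSPA1B stood at 11.3, 13.1 and 32.6 CPM under drop-out and at 2.50, 2.68 and 7.78 CPM under improved handling (log2 change -2.15, SE 0.44, edgeR adjusted p = 0.000182), on 51 reads in each of these groups. Neither gene's handlings overlapped. HSPH1 (log2 change 2.30), HSPD1 (0.99) and HSPA5 (0.89) were also called higher, and DNAJB1 (-1.04) and HSP90AB1 (-0.82) lower.

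HSPA5 and HSPA8 are given in full, although the s4U by handling interaction passed the test for neither (edgeR adjusted p = 0.236 and 0.677). That interaction tests whether the handling change differs between labelled and unlabelled RNA. Unlabelled HSPA5 was at 210, 242 and 244 CPM under drop-out and at 402, 436 and 450 CPM under improved handling, so the groups did not overlap (edgeR adjusted p = 5.14e-05). Unlabelled HSPA8 was at 182, 197 and 253 CPM under drop-out and at 177, 191 and 204 CPM under improved handling, which overlap (log2 change -0.13, edgeR adjusted p = 0.536). Without TMM that value turned to 0.31, the median of all genes rose from 0.43 to 0.86, and genes called higher made up 68.0% of called genes in place of 57.4%. With exonic and intronic reads counted together, and filter and TMM scaling taken anew, 2 members in place of 4 were called higher. That count is given without the share of all genes called in that fit, and the cause of the change was not tested. HSPA5 had 1 intronic read beside 667 exonic ones in unlabelled drop-out libraries, and 4 beside 3815 in unlabelled improved libraries. HSPA5 at 0.23 (edgeR adjusted p = 0.265) and HSPD1 at 0.35 (0.132) were no longer called, and HSPA8 was called lower at -0.79 (0.00435). The others kept their calls but also moved down, HSPH1 to 1.41, HSP90AA1 to 1.51, HSP90AB1 to -1.45, DNAJB1 to -1.54 and HSPA1B to -2.81.

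The effect of s4U itself was read against the unlabelled library of the same chemistry and handling. Under drop-out handling, HSPA1B and HSPA8 were higher with s4U. They were 2 of the 15 genes of 12449 called higher, which is 0.12% of all tested genes, and no member was called lower. HSPA8 was at 182, 197 and 253 CPM without s4U and at 378, 451 and 558 CPM (lowest, median, highest) with it, a fitted difference of 1.14 on the log2 scale (SE 0.17, adjusted p = 0.00107 in edgeR). HSPA1B was at 11.3, 13.1 and 32.6 CPM without and 40.5, 65.5 and 77.7 CPM with s4U, a fitted difference of 1.87 on the log2 scale (SE 0.30, adjusted p = 0.00351 in edgeR). For both, all 6 labelled libraries lay above all 3 unlabelled ones. With the 3 chemistries of a replicate number summed, leaving 2 labelled samples against 1, the log2 changes were 1.09 for HSPA8 (edgeR adjusted p = 0.889) and 1.86 for HSPA1B (0.269), and neither was called. Of all genes, 2 were called in that fit. Without TMM, 13 of 47 called genes were higher, against 15 of 27.

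HSPA1A, the near-identical copy, had 2 reads in the 3 unlabelled and 34 reads in the 6 labelled drop-out libraries, and 3 and 6 reads under improved handling. These counts are too few for a fold change. They also depend on the alignment. Over all libraries HSPA1A had 45 exonic reads with HISAT-3N, 90 with HISAT2 under settings D, 418 with HISAT2 under settings VL and 5 with STAR under each of its 3 settings, whereas HSPA1B had 597 to 696 under all 7 alignments. Of the 418 reads, 262 carried a T-to-C mismatch, 27 of them in unlabelled libraries. Reads of the pair are thus not assigned with certainty, and the values of HSPA1B hold for reads that the aligner placed there.

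The other members did not pass the test for s4U under drop-out handling. HSP90AA1 had a log2 change of 0.80 (edgeR adjusted p = 0.206), HSPH1 of 0.86 (0.299), HSPA5 of 0.53 (0.142), HSP90AB1 of 0.36 (0.247), HSPD1 of 0.28 (0.592) and DNAJB1 of 0.20 (0.768). HSPA5 was called by DESeq2 (0.60, adjusted p = 0.0445), and HSP90AA1 without the filter on low counts (0.90, edgeR adjusted p = 1.11e-06). For HSP90AA1 the libraries numbered 1 lay 1.09 to 1.41 log2 units above their unlabelled library and those numbered 2 between -0.15 and 0.67. For HSPD1 the same ranges were 0.42 to 0.72 and -0.17 to 0.16. HSPA8 was the other way, 0.66 to 1.09 in number 1 and 1.14 to 1.46 in number 2. Every library of both numbers thus lay above its unlabelled library for HSPA8, HSPA1B, HSPA5 and HSP90AB1. DNAJB1 ran from 0.0001 to 0.55, its lowest library being level with the unlabelled one. At least 1 library numbered 2 lay below its unlabelled library for HSP90AA1, HSPD1 and HSPH1. With the number 1 or the number 2 libraries alone, each drop-out group holds 1 library and the spread comes from the improved pairs, assumed to hold for drop-out too. The drop-out pairs varied more. Chi-square over its degrees of freedom between labelled replicates was 5.96 (TL), 8.68 (SLAM) and 4.85 (TUC) under drop-out. Under improved handling it was 2.32, 2.13 and 2.19, so the spread used was likely too small for drop-out. In those fits HSPA8 stood at 1.03 with number 1 and 1.43 with number 2, and HSPA1B at 2.21 and 1.67. Calls rose over the whole table there, so nothing is read from the members called. Leaving out TL drop-out replicate 2 or SLAM drop-out replicate 1 leaves 1 library in its group, and the calls of those fits are not read either.

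**Figure D3:**
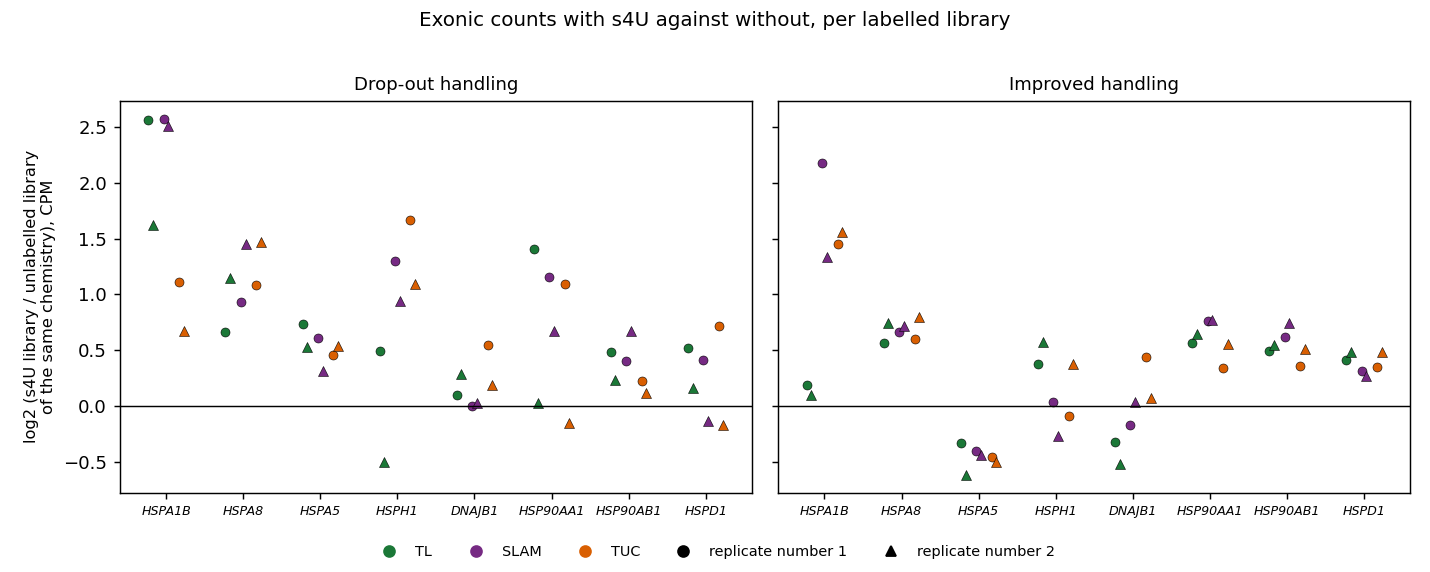
Log2 ratio of exonic CPM in each labelled library over the unlabelled library of its chemistry and handling (y axis) for 8 chaperone genes (x axis), with drop-out handling on the left and improved handling on the right; colour gives the chemistry and shape the replicate number. All 12 points of HSPA1B and of HSPA8 lie above 0, and HSPA5 lies above 0 in 6 of 6 drop-out libraries and below 0 in 6 of 6 improved libraries.

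Under improved handling no member was called for s4U in either direction, where 0.177% of tested genes were called higher. At an unadjusted p under 0.05, HSPA5, HSP90AA1, HSP90AB1, HSPA8, HSPD1 and HSPA1B passed, among 918 of the 12449 genes. DESeq2 called 2 members higher, among 28 of 11724 genes in either direction. HSPA8 lay above its unlabelled library in 6 of 6 libraries, by 0.56 to 0.80 log2 units, with a fitted value of 0.68 (SE 0.16, edgeR adjusted p = 0.103). HSP90AB1 was above in 6 of 6 by 0.36 to 0.74, with a fitted value of 0.55 (SE 0.12, edgeR adjusted p = 0.0508). HSP90AA1 (0.61, adjusted p = 0.563) and HSPD1 (0.39, adjusted p = 0.626) were also above in 6 of 6 libraries, and HSPA1B (1.12, adjusted p = 0.479) in 6 of 6 by 0.10 to 2.17. Each of these counts rests on 1 unlabelled library per chemistry. For HSPA1B those held 41 (TL), 4 (SLAM) and 6 (TUC) reads, and the TL ratios were 0.10 and 0.19. With the labelled drop-out libraries of number 1 or of number 2 alone, 5 members were called higher for s4U under improved handling and HSPA5 lower, among 846 and 810 genes called, against 28. Those fits take their spread from the improved pairs, which varied less, while the main fit shares 1 spread over the pairs of both handlings. The cause of the change in calls was not tested. With chemistries summed, no member was called.

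Of the 9 tested members, HSPA5 alone lay on opposite sides of its unlabelled libraries in every library of the 2 handlings. The share of all tested genes with this pattern was not counted, so it is not read as particular to HSPA5. It lay above by 0.31 to 0.73 log2 units in 6 of 6 drop-out libraries and below by -0.61 to -0.33 in 6 of 6 improved libraries. The difference between the s4U effects was -0.98 (SE 0.20, unadjusted p = 5.68e-05 and adjusted p = 0.236 in edgeR). No member passed that interaction test, and of all genes edgeR called 0 (0%), with 914 at an unadjusted p under 0.05, while DESeq2 called 3, of which 1 was HSPA5 (-1.03, adjusted p = 0.0391). Without the filter on low counts edgeR called HSPA5 as well (-1.03, adjusted p = 0.0377). Leaving out SLAM drop-out replicate 1 or 2 also gave a call (-1.001 and -1.07, adjusted p = 0.0238 and 0.0249). With drop-out number 1 alone the HSPA5 difference was -1.13 and with number 2 alone -0.94, both called, among 1306 and 625 genes. With chemistries summed it was -0.97 (edgeR adjusted p = 0.9999) and no gene was called. The 2 effects share no library, but each rests on 1 unlabelled library per chemistry.

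The share of T-to-C reads is a readout of RNA made during the 2 h of label. It also holds mismatches present without s4U and differed by handling and library, so it does not measure synthesis alone. The share was tested as log2 odds in the 12 labelled libraries for 1992 genes, 5 of them members, that reached 50 exonic reads in every such library. Improved handling gave a higher share for HSPA8, HSPA5, HSPD1 and HSP90AB1, 4 of 5 members, where 81.9% of all genes tested were called higher, so this count is that of the table. The fifth, HSP90AA1, did not pass the test.

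In HSPA8 the converted share ran from 8.59% to 31.6% under drop-out (mean 19.0% ± 9.33, SD, n = 6) and from 24.4% to 37.1% under improved handling (30.8% ± 5.18, n = 6). The log2 odds rose by 1.02 (SE 0.24, edgeR adjusted p = 0.00014), and unlabelled libraries showed 1.49% to 3.45%. HSPA5 went from 17.95% ± 7.58 to 26.3% ± 3.505 (SD, n = 6 each; log2 odds 0.77, edgeR adjusted p = 0.00191). HSPD1 went from 10.2% ± 3.55 to 14.8% ± 2.86 (0.60, edgeR adjusted p = 0.0131), a call lost with STAR (0.41, adjusted p = 0.0566), with HISAT2 (0.23, 0.275) and without SLAM drop-out replicate 2 (0.49, 0.0511). HSP90AB1 went from 10.2% ± 2.04 to 14.1% ± 1.47 (0.54, edgeR adjusted p = 0.00298). The ranges of the handlings overlapped for all 4 genes. The unlabelled background of HSP90AB1, 4.02% to 7.06%, was the highest among the 5.

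HSP90AA1 had a converted share of 8.29% ± 1.76 under drop-out and 8.58% ± 0.86 under improved handling (SD, n = 6 each). Its unlabelled libraries showed 1.45% to 2.33% under drop-out and 2.68% to 3.75% under improved handling. These backgrounds did not overlap and were not subtracted from the shares or odds. The log2 odds of HSP90AA1 changed by 0.01 (SE 0.12, edgeR adjusted p = 0.954), and only 43 of the 1992 genes, 2.16%, had a lower value of this change. The sign of that value is not settled, since it was -0.02 with STAR and -0.07 with HISAT2. Over the same genes the median share rose from 10.6% to 21.5%, so that 32.5% of genes had a lower share than HSP90AA1 under drop-out and 4.32% under improved handling. Counted per T position, HSP90AA1 had 4.16 T-to-C mismatches per 1000 T under drop-out and 5.32 under improved handling, against medians over all 1992 genes of 6.11 and 16.4. Its reads without a mismatch stood at 434 ± 180 CPM under drop-out and 1689 ± 289 CPM under improved handling, and its reads with one at 42.0 ± 24.7 and 157 ± 17.5 CPM (SD, n = 6 each), so both kinds of read were more frequent under improved handling. Reads with a mismatch already stood at 5.255 ± 1.79 and 36.7 ± 3.97 CPM without s4U (SD, n = 3 each).

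The converted share also differed by replicate number. Under drop-out, HSPA8 had 20.6% to 31.6% in libraries numbered 1 and 8.59% to 14.6% in those numbered 2, and HSPA5 had 18.4% to 31.0% and 10.6% to 15.7%. Under improved handling the numbers overlapped for both genes. Against the number 1 drop-out libraries alone, no member passed the test: the log2 odds were 0.30 for HSPA8 (edgeR adjusted p = 0.149), 0.25 for HSPA5 (0.233), 0.33 for HSPD1 (0.161), 0.26 for HSP90AB1 (0.0641) and -0.16 for HSP90AA1 (0.384), while 1334 of the 1992 genes were called. Against the number 2 libraries alone they were 1.82, 1.36, 0.97, 0.83 and 0.31, and the same 4 members were called. Without the number 2 libraries, no member's rise in converted share was thus called.

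**Figure D4:**
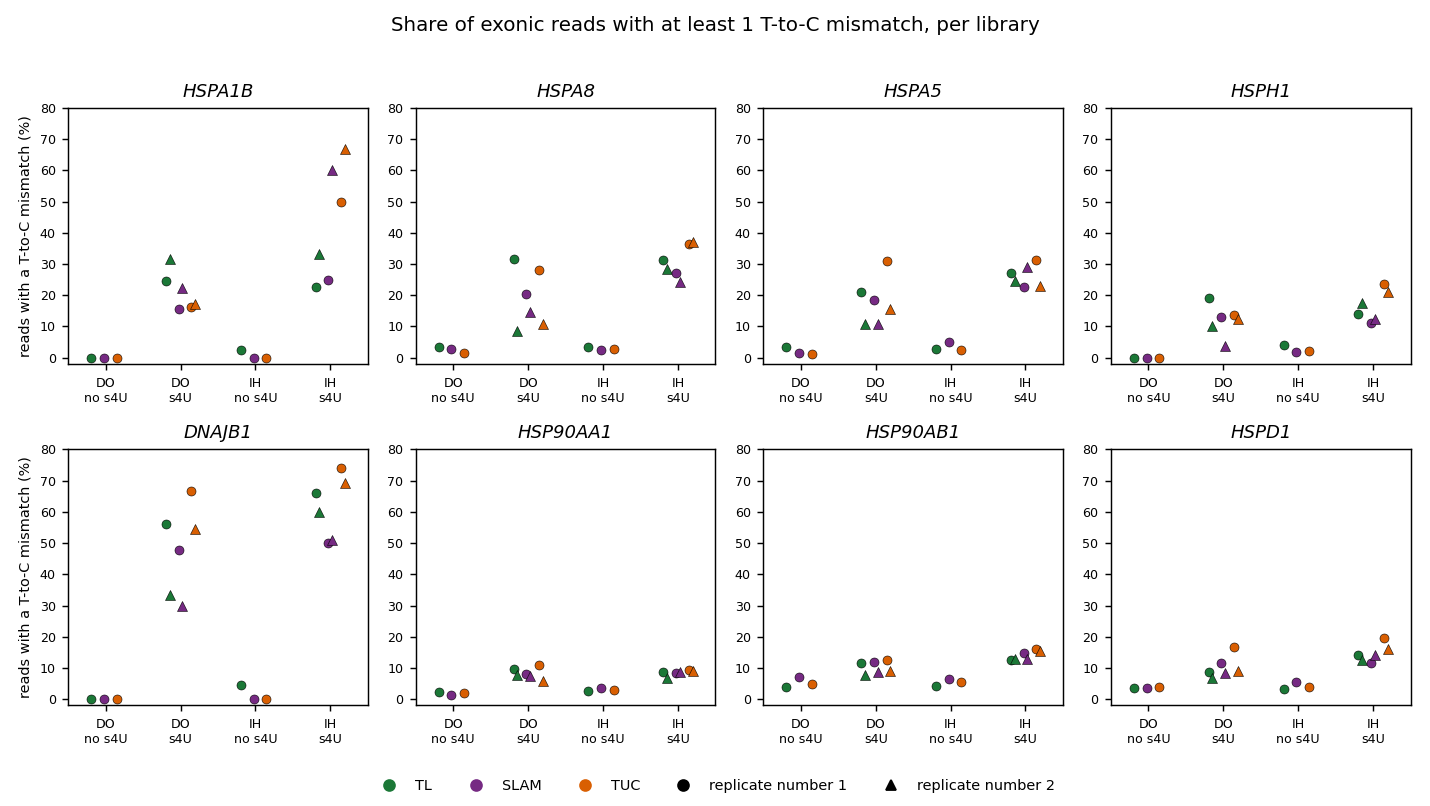
Percent of exonic reads that carry a T-to-C mismatch (y axis) for 8 chaperone genes in each library, by handling and label (x axis); colour gives the chemistry and shape the replicate number. DNAJB1 runs from 29.8% to 74.0% in labelled libraries and HSP90AA1 stays between 5.88% and 10.9%. The labelled drop-out libraries numbered 2 lie below those numbered 1 for HSPA8, HSPA5, HSP90AB1, HSP90AA1 and HSPH1.

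Members with fewer reads were not tested for the share and are described only. HSPA1A, with a mean share of 49.8% on 1 to 14 reads per labelled drop-out library, and HSPE1 had too few reads to be ranked. Among the other members DNAJB1 carried the highest mean shares, 48.1% ± 14.2 under drop-out and 61.8% ± 9.82 under improved handling (SD, n = 6 each), on 26 to 131 reads per labelled library. Its unlabelled libraries had 0 converted reads of 170 under drop-out and 7 of 259 under improved handling, all 7 in the TL library. By number, its drop-out share ran from 47.9% to 66.7% in number 1 and from 29.8% to 54.5% in number 2. Its reads without a mismatch stood at 34.1 ± 10.6 CPM under drop-out and 9.99 ± 2.44 CPM under improved handling, and its reads with one at 31.4 ± 9.90 and 16.6 ± 5.19 CPM, so both kinds were fewer under improved handling. HSPA1B had 21.2% ± 6.22 under drop-out and 43.0% ± 18.6 under improved handling, the latter on 10 to 22 reads per library, so that a single library at 60% has a 95% Wilson interval of 31.3% to 83.2% for counting error alone. In labelled drop-out libraries its reads without a mismatch stood at 49.1 ± 12.2 CPM (n = 6), against 19.0 ± 11.8 CPM (n = 3) for all its reads without s4U, so the rise with s4U was not confined to reads scored as new. HSPH1 had 12.05% ± 5.01 and 16.6% ± 4.96 (SD, n = 6 each).

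The 3 chemistries could not be told apart on the members under improved handling. The test of any difference between chemistries called 0 of the 1992 genes (0%), with 49 at an unadjusted p under 0.05 and no other tool run. TUC gave the highest mean share in HSPA8, 36.8% ± 0.37, beside 29.9% ± 2.13 for TL and 25.7% ± 1.85 for SLAM (SD, n = 2 each), and in DNAJB1, 71.7% ± 3.30 beside 63.1% ± 4.31 and 50.6% ± 0.79. The log2 odds of TUC over SLAM in HSPA8 were 0.76 with an interval from -0.03 to 1.55, and in HSP90AA1 0.10 with an interval from -0.47 to 0.68 (95%, from the fit's SE). A p that misses the threshold does not show that the chemistries act alike.

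Intronic reads were frequent enough for a test in 1 member, HSP90AB1, whose intronic against exonic log2 odds rose by 0.76 under improved handling (SE 0.21, edgeR adjusted p = 0.0024). Of the 572 genes tested, 94.1% were called higher.

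Alignment with STAR in place of HISAT-3N was tested on 8 members, relative to TMM scaling. HSPA1A, not among them, had 5 reads with STAR in place of 45. Of the 8 tested members 2 were called higher with STAR, HSP90AB1 (log2 0.09) and HSPD1 (0.09), and 2 lower, HSPA8 (-0.10) and HSP90AA1 (-0.04), where 12.5% of genes were called higher and 10.3% lower. Lower here does not mean fewer reads. Before scaling, STAR placed 1.12 times as many reads as HISAT-3N on HSPA8 and 1.15 times as many on HSP90AA1 over all libraries. For HSP90AB1 and HSPD1 the ratios were 1.28 and 1.26. DNAJB1, with the widest difference of the 8 at -0.18, did not pass (edgeR adjusted p = 0.0577), while HISAT2 in place of STAR put it at -0.34 (0.000103). HSP90AA1 turned to 0.03 with HISAT2 in place of STAR and to 0.07 with intronic reads added.

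HSPE1 is rarely named by the gene column of the count table. The column for transcripts gave it 734 exonic reads over all libraries, in place of 30. On RefSeq it starts 104 bases beyond the end of HSPD1 on chromosome 2, the partners being transcribed away from each other. Counted by the transcript column, it had a log2 change of 0.05 between handlings in labelled RNA (edgeR adjusted p = 0.845), unlike HSPD1. With s4U it changed by 0.35 under drop-out (0.716) and by 0.76 under improved handling (0.443). Its converted share, pooled over libraries, was 13.1% in labelled drop-out, 18.9% in labelled improved and 7.81% and 2.55% in the respective unlabelled libraries. HSPA8 and HSPA1B gained reads by that column as well, and their s4U changes under drop-out were 1.03 (edgeR adjusted p = 0.00563) and 2.01 (0.000734). Under improved handling they were 0.66 (0.171) and, for HSPA1B, 0.61 (0.74) in place of 1.12. HSPA8 gained 580 reads beside 3071 in labelled drop-out libraries, but 90 beside 3349 in labelled improved libraries. Its handling change was then -0.76 in labelled RNA in place of -0.59. In unlabelled RNA it was -0.39 (edgeR adjusted p = 0.0747) in place of -0.13. For HSPA1B the handling changes were -2.98 and -1.59 in place of -2.90 and -2.15.

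The authors' deposited table of first-order degradation rate constants, whose time unit is not stated, holds 5 of the 10 members in all 3 chemistries. In the authors' deposited table HSPA8 had 0.0885 under drop-out and 0.166 under improved handling with TL, 0.0623 and 0.115 with SLAM, and 0.0766 and 0.18 with TUC. In the authors' deposited table HSP90AB1 had 0.0276 and 0.0468 with TL, 0.0263 and 0.04 with SLAM, and 0.0268 and 0.0567 with TUC. Both genes passed an adjusted p of 0.05 in all 3 chemistries of the authors' deposited table, and HSPA5 in TL alone. By the authors' deposited table, 3 members were higher under improved handling in TL, 2 in SLAM and 2 in TUC and none was lower, where 52.6%, 48.9% and 48.1% of all listed transcripts were higher.

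HSP90AA1 differed from HSPA8 and HSP90AB1, passing in no chemistry. Its rate constant in the authors' deposited table went from 0.0332 to 0.0245 with TL (log2 -0.41, adjusted p = 0.296), from 0.0186 to 0.0177 with SLAM (-0.03, 0.961) and from 0.0221 to 0.0259 with TUC (0.28, 0.635). It was not alone in this. In the authors' deposited table HSPD1 passed in no chemistry either (log2 0.63 with TL, 0.83 with SLAM, 0.80 with TUC, adjusted p = 0.239, 0.252 and 0.194). HSPA5 with TUC changed less than HSP90AA1 (log2 0.15, adjusted p = 0.733). The median log2 value of the authors' deposited table was 1.18 with TL, 1.14 with SLAM and 1.19 with TUC. Under improved handling 3.53%, 2.62% and 3.67% of the transcripts listed for those chemistries had a lower rate constant than HSP90AA1 in the authors' deposited table, against 38.7%, 25.1% and 24.3% under drop-out. HSPA8 ranked above 75.1%, 67.4% and 79.2% of transcripts under improved handling in the authors' deposited table, and HSPD1 above 11.4%, 5.31% and 16.4%. These constants were made from libraries of the same series, so they are not separate evidence beside the converted shares.

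**Figure D5:**
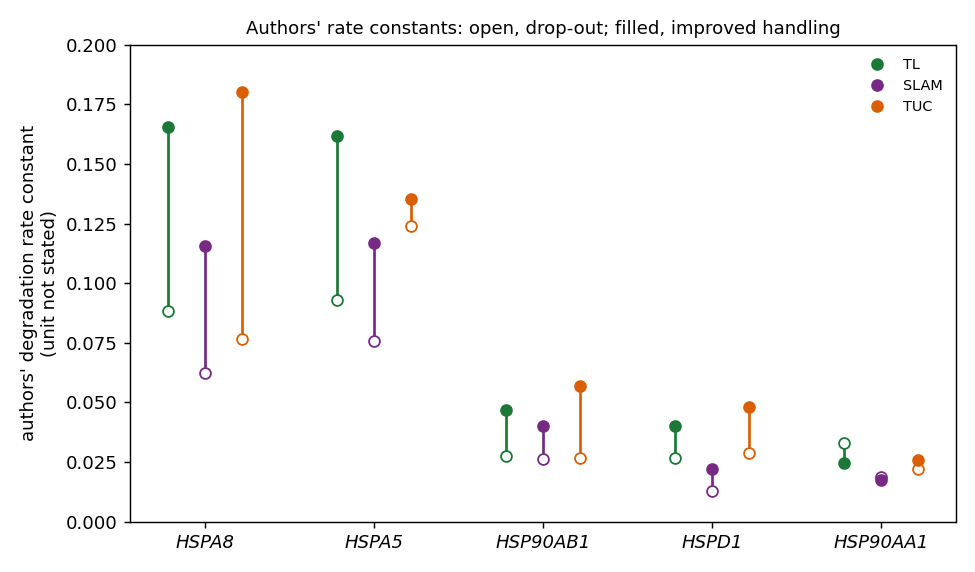
Degradation rate constants of 5 members from the authors' deposited table (y axis, time unit not stated), by gene (x axis) and chemistry (colour); open points are drop-out and filled points improved handling, joined per chemistry. HSPA8 rises from 0.0885 to 0.166 with TL, while HSP90AA1 stays between 0.0177 and 0.0332 in every chemistry and handling.

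Other genes of the chaperone network were counted from a list of 55 symbols, in the rate table only, because the count table names genes by Ensembl identifiers that could not be paired with symbols here. Of the 55, the authors' deposited table holds 26 with TL, of which 10 were higher under improved handling and 0 lower, 24 with SLAM (9 and 0) and 25 with TUC (4 and 0). Their median log2 value in the authors' deposited table was 0.86, 0.90 and 0.91, beside 1.18, 1.14 and 1.19 over all transcripts. The counts here and below stand beside 52.6%, 48.9% and 48.1% of all transcripts higher. Among the HSP90 family and its co-chaperones, 6 of 9 listed were higher with TL, 5 of 9 with SLAM and 2 of 9 with TUC in the authors' deposited table. TRAP1, the mitochondrial HSP90, and UNC45A, a myosin co-chaperone of HSP90, were higher in all 3 chemistries. With TL, TRAP1 went from 0.00993 to 0.0386 and UNC45A from 0.0208 to 0.0888 in the authors' deposited table. Of the 5 endoplasmic reticulum folding genes CALR, CANX, PDIA3, PDIA4 and PDIA6, 0 passed in any chemistry of the authors' deposited table, with median log2 values of 0.30, 0.41 and 0.29. HSF1, the heat shock factor itself, went from 0.0209 to 0.0693 with TL and from 0.0185 to 0.0633 with SLAM, both past the test in the authors' deposited table, and from 0.031 to 0.0595 with TUC (adjusted p = 0.159). None of the 7 symbols grouped in the list as nucleotide exchange factors was among the transcripts of the authors' deposited table. The HSP110 family, which also holds exchange factors, was counted in another group of the list. Of that group, HSPA4, HSPA9 and HYOU1 were in the authors' deposited table with all 3 chemistries.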

How the data were processed

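The deposited count table holds, for each library, counts of reads that share a gene, an intronic flag, a number of T-to-C mismatches and a number of T positions, made by the authors for 7 alignments (HISAT-3N, HISAT2, STAR; settings codes D, ML and VL are not defined in the sources used here). The mismatch and T-position numbers are those the authors deposited. The submitters' processing notes name cutadapt, HISAT2, STAR, Picard, HTSeq and DESeq2, with GRCh38. The authors' deposited rate constants come with log2 fold changes and adjusted p-values, used as given. Of 28 samples, 18 are in the count table. The other 10 were not analysed here.

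The members and lists were chosen with earlier results of these data known, and all 10 members are named whatever their values. The pairing of member symbols with Ensembl identifiers was given with the choice of members, and each chromosome was checked against RefSeq. Exonic reads of the HISAT-3N D alignment were summed per gene and library. Genes passing filterByExpr (12449) were scaled by TMM and fitted with edgeR 4.0.16 (R 4.3.3, limma 3.58.1) over 12 groups of chemistry, handling and label, by quasi-likelihood with Benjamini-Hochberg adjustment and a threshold of 0.05. The unlabelled groups hold 1 library each, so the spread comes from the labelled pairs, and, where drop-out libraries of 1 number were used, from the improved pairs only. Converted reads carry at least 1 mismatch. Their odds were fitted in the same tool as converted against unconverted counts, with a minimum of 50 reads per labelled library. DESeq2 1.42.0 was an alternative. The fits were also run on simulated data, whose outcome is not given here. Replicate numbers did not pair handlings (r of -0.000989, 0.00384 and 0.000668 within chemistries). Counting intervals are 95% Wilson and cover counting error only, since reads carry no molecular identifiers here. Ensembl identifiers could not be paired with symbols beyond the members, so cell type markers, the pathway list and genes of like pattern were not looked up in the counts. Promoters came from RefSeq GRCh38.p14.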

Additional observations from a re-analysis of the deposited data

Results flagged for a closer look

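The s4U effect on HSPA5 went in opposite directions under the handlings, above the unlabelled library in 6 of 6 drop-out and below it in 6 of 6 improved libraries, with a difference of -0.98 (log2). That difference did not pass after adjustment in edgeR (adjusted p = 0.236). How many of all tested genes show such opposite directions was not counted. The transcript column, outside the main measurement, assigned 924 further exonic reads to HSPA8, 163 to HSPA1B and 704 to HSPE1 over all libraries, with none added for the other 7 members.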

How the results depend on the processing

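Most values kept their direction and their side of the threshold: 309 counts of members stayed within 1.5 times and 31 moved, and of single-gene values 1015 kept both, 67 newly passed, 15 no longer passed and 21 reversed. The cause of the changes was not tested. Counts of members in this section are given without the share of all genes called under the same alternative, so nothing is read from them about the members. The alternatives using drop-out libraries of 1 number, summed chemistries and the transcript column were chosen after seeing the data. With drop-out number 1 only, 7 members (main 2) were higher with s4U under drop-out, 5 higher and 1 lower under improved handling (main 0), 3 lower in the interaction and 0 higher in converted share (main 4), with HSPD1 at -0.25 in the interaction and HSP90AA1 at -0.16 in share. With number 2 only, 5 were higher under drop-out, 5 higher and 1 lower under improved handling, and 2 higher and 2 lower in the interaction, where HSP90AA1 turned to 0.40. Summed chemistries left 0 members higher with s4U under drop-out. DESeq2 gave 2 members higher with s4U under improved handling and 1 lower in the interaction. No filter gave 3 and 1. HISAT2 settings D gave 2 higher under improved handling and HSP90AA1 at -0.0702 in share, which STAR put at -0.0236. HISAT2 in place of STAR turned HSP90AA1 to 0.0327 and HSPH1 to 0.0052 in the aligner comparison. Adding intronic reads left 2 members higher without s4U (main 4) and 0 lower between aligners (main 2), with HSP90AA1 at 0.0658 and HSPA5 at 0.0535. Without TMM, 3 members were lower with handling (main 5), 2 were higher with s4U under improved handling, HSPA5 stood at 0.45 in labelled and HSPA8 at 0.31 in unlabelled RNA.

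Leaving out single libraries gave 2 to 4 members higher with s4U under drop-out, 0 to 2 under improved handling (2 only without a labelled drop-out library), 0 to 1 lower in the interaction and 1 to 2 lower between aligners. The interaction ran from -0.45 to 0.0601 for HSP90AA1 and from -0.0944 to 0.28 for HSPD1, and the share change of HSP90AA1 from -0.10 to 0.22. The replicate block left 3 members higher and 5 lower in labelled RNA, and 4 higher in converted share. The 5 lower then hold HSPA5, which passed at -0.29 (edgeR adjusted p = 0.0114) but not with chemistries summed (-0.23, 0.281), and not HSPA1A, which was not among the 8 members tested there. The block changed no call of the other 7. For counts its fit held labelled libraries alone, with TMM scaling of its own. With exonic and intronic reads, under TMM scaling of that fit's own, HSPA5 stood at -0.78 in labelled RNA. Depth limits HSPA1A and HSPA1B. HSPE1 was untested in the gene column, which gives it few of its reads.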
